A study of Mus musculus with 6 samples.

Results

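Lymphatic endothelial cells were examined in the CD45-negative fraction of mouse skin, in 3 libraries of single-cell RNA sequencing. The cells were chosen by their measured UMIs (unique molecular identifiers, each counting 1 captured RNA molecule). A barcode needed 500 or more UMIs from 300 or more genes, with mitochondrial genes giving no more than 10% of them. It also needed at least 3 UMIs in all from Prox1, Mmrn1, Lyve1 and Flt4, at least 1 from Pecam1, Cdh5 and Egfl7, and less than 0.5% of its UMIs from Krt5 and Krt14. The rule found 453 cells among 23796 CD45-negative cells that passed the first filter, out of 48101 barcodes in the 6 libraries of the series. WT mice gave 65 of them, UP_Del mice without alopecia 267 and UP_Del mice with alopecia 121.

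The mice were adult females of 17 to 18 weeks on a C57/BL6 background, without treatment. UP_Del mice lack an enhancer upstream of Il2ra, the gene of the IL-2 receptor alpha chain, and some of them lose hair. Both UP_Del groups carry this deletion, so the mice with and without alopecia share the genotype and differ in the hair phenotype. Skin freed of its hypodermis was digested with enzymes and sorted into live CD45+ and CD45- cells, and each group gave 1 library per sort on the 10x 5′ platform. The number of mice behind a library is not given in the sources used here. With 1 library per group there is no replicate spread between groups, so differences between groups carry counting intervals only and no p-value.

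Lymphatic vessels drain fluid, antigen and immune cells from skin to lymph nodes. Blind-ended capillaries take these up, and collecting vessels with valves carry them on. Prox1 is the transcription factor that sets and keeps lymphatic identity. Flt4 encodes VEGFR3, the receptor for VEGF-C, Lyve1 a hyaluronan receptor of the capillaries, and Mmrn1 a secreted multimerin. Dendritic cells enter lymphatic capillaries along CCL21, which the endothelium secretes.

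In all that follows, values in threes are in the order WT, UP_Del without alopecia and UP_Del with alopecia. A level is the number of a gene's UMIs per 1000000 UMIs (CPM), both summed over the lymphatic cells of a library. Those sums held 299096, 1119676 and 604099 UMIs, with a median of 4382, 3612 and 4295 UMIs per lymphatic cell. Blood endothelial cells served as the comparison. They had no UMI of the 4 lymphatic markers and at least 3 UMIs from Pecam1, Cdh5 and Egfl7, and numbered 177, 644 and 251 (median 4025, 3738 and 3875 UMIs).

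The library from UP_Del mice without alopecia stood apart across cell types. Its CD45-negative cells other than endothelial cells had Fkbp5 at 122, 24.1 and 101 CPM. Its immediate early genes were highest in every class, and those of the library with alopecia lowest, at 24076, 29716 and 15741 CPM in lymphatic cells. On this measure the library with alopecia lay apart from WT as well. The cell filter also removed fewer of its barcodes, 7.56% against 26.7% in WT and 30.4% with alopecia, mostly through mitochondrial UMIs. Values in blood endothelial cells are therefore given beside the main group results, and the part that a difference between libraries plays in them was not tested.

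The 4 genes of the rule were spread over the cells as follows, as a description of the choice and not as a result. Prox1 (chr1:190118035-190170714, minus strand, mm10) stood at 548, 465 and 548 CPM. Mmrn1 (chr6:60924976-60989378, plus strand) stood at 2153, 1776 and 2203 CPM, Lyve1 (chr7:110850607-110863239, minus strand) at 1772, 1048 and 1554 CPM and Flt4 (chr11:49609263-49652739, plus strand) at 645, 508 and 606 CPM. The median cell had 18, 10 and 17 UMIs of the 4 genes together, and the range was 3 to 85, 3 to 102 and 3 to 105. All 4 were seen in 20, 57 and 40 cells, and 1 only in 6, 22 and 12. Just inside the threshold, at 3 UMIs, were 6, 36 and 7 cells, in which Flt1, a blood endothelial VEGF receptor, stood at 0, 45.4 and 400.2 CPM. Just outside it, at 2 UMIs, were 12, 33 and 7 cells with Flt1 at 796, 123 and 862 CPM.

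Markers of other cell types were checked next. The leukocyte list had 9, 6 and 9 of its 10 members at 0, with Ptprc, the gene of CD45, among them, and summed to 3.34, 3.57 and 6.62 CPM. The macrophage list had 9, 7 and 8 of its 10 members at 0 and summed to 16.7, 33.9 and 29.8 CPM, against 9.27, 3.65 and 5.49 CPM in the remaining CD45-negative cells. Its UMIs came from Mrc1 (16.7, 17.9 and 24.8 CPM), which lymphatic cells also express, Fcer1g (0, 14.3 and 4.97 CPM) and Csf1r (0, 1.79 and 0 CPM). The defining macrophage genes C1qa, C1qb, C1qc, Adgre1, Cd163 and Lyz2 had no UMI in any of the 453 cells. RNA of keratinocytes and fibroblasts was present unevenly. The 10 keratinocyte markers summed to 40.1, 2705 and 74.5 CPM and the 8 fibroblast markers to 16.7, 1339.7 and 907 CPM, against 16315, 27642 and 18295 and 6383, 4906 and 7020.2 CPM in the remaining CD45-negative cells. In the library without alopecia 11 cells had at least 0.5% of their UMIs from the keratinocyte list, against 0 in both other libraries. The 15 blood endothelial markers summed to 358, 671 and 998 CPM in lymphatic cells and to 10199, 9173 and 9311 CPM in blood endothelial cells.

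Lymphatic and blood endothelial cells were compared over the 3 libraries, each library being its own pair. Of 10034 genes tested with edgeR, 1322 were higher in lymphatic cells (13.2% of those tested at an adjusted p under 0.05) and 1468 lower (14.6%). The cells had been split by marker genes, so genes that vary with those markers from cell to cell had to separate in part. This comparison describes how the lymphatic cells differ, and the 9 genes of the rule were left out of it. Pairing gives 2 residual degrees of freedom, and the differences are in log2 units, lymphatic minus blood.

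Of the 20 listed genes of lymphatic identity, 16 were higher in lymphatic cells and 0 lower, with a median difference of 3.50 against -0.02 over all genes tested. Ccl21a (chr4:42772860-42773993, minus strand), the chemokine that guides CCR7-bearing dendritic cells, stood at 6660.1, 2978 and 5708 CPM in lymphatic and 0, 5.48 and 0.738 CPM in blood endothelial cells. It was the gene with the largest difference by the naming rule, 10.33 (adjusted p = 2.9e-06), and 46, 194 and 91 cells carried it. Near-identical Ccl21 copies lie in the same region, so its reads may be split or shared among them. Reln (chr5:21884454-22344702, minus strand), the gene of the secreted glycoprotein reelin, followed at 1468, 801 and 1417 CPM against 4.42, 2.74 and 0.738 CPM, a difference of 8.62 (adjusted p = 1.1e-06). For both genes every lymphatic level lay far above every blood endothelial level.

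Transcription factors formed part of this identity. Maf (chr8:115682942-115707794, minus strand) stood at 425, 171 and 391 CPM against 6.63, 12.7 and 3.69 CPM in blood endothelium (4.89, adjusted p = 5.0e-05). Tbx1, which acts in lymphatic growth, stood at 348, 331 and 374 CPM (5.04), and Nr2f2, the gene of COUP-TFII, which acts with Prox1, at 742, 526 and 779.7 CPM against 59.7, 100.3 and 81.2 CPM (2.96). Sox18, which switches Prox1 on in the embryo, did not separate the classes (234, 205 and 321 against 278, 182 and 241 CPM, 0.05, adjusted p = 0.85). Hoxd10 and Nrp2 did not pass either, at 0.63 and 0.13.

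Secreted and surface products were also part of it. Fgl2, the gene of a fibrinogen-like protein with immunosuppressive activity, stood at 1548, 1686 and 1763 CPM against 13.3, 44.9 and 20.7 CPM (5.88, adjusted p = 2.9e-06). Fxyd6, a regulator of the sodium pump, stood at 1558, 1500.4 and 1546 CPM (6.26). For both the 3 lymphatic levels lay within 1.5-fold of each other. Nts, the gene of neurotensin, stood at 1097, 1167 and 940.2 CPM but was seen in 26, 114 and 49 cells only (6.12). Pdpn (chr4:143267431-143299564, minus strand), whose product podoplanin keeps lymph and blood apart through platelets, stood at 251, 199 and 207 CPM (5.35, adjusted p = 4.0e-06).

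Genes outside the lists were named by their difference among those with at least 100 CPM in lymphatic cells of each library. They were Sh3gl3 (7.35), Lcn2 (7.12), Slc45a3 (6.73), Plce1 (6.46), Pkhd1l1 (6.40), Nrxn2 (6.27), Comp (6.11), Dtx1 (6.09), Gpm6a (5.97), Igfbp5 (5.77), Glis3 (5.55) and Fndc1 (5.42). Lcn2, the gene of the iron-siderophore-binding lipocalin 2, stood at 1280.5, 755 and 798 CPM. Igfbp5, a binding protein of insulin-like growth factors, stood at 3310.0, 1827 and 3299 CPM against 60.8, 34.6 and 48.7 CPM in blood endothelium. On the blood endothelial side the same rule named Csf2rb (-8.15), Ackr1 (-7.47), Mecom (-6.92), Mndal (-6.48), Selp (-6.48) and Ifi203 (-6.41).

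**Figure D1:**
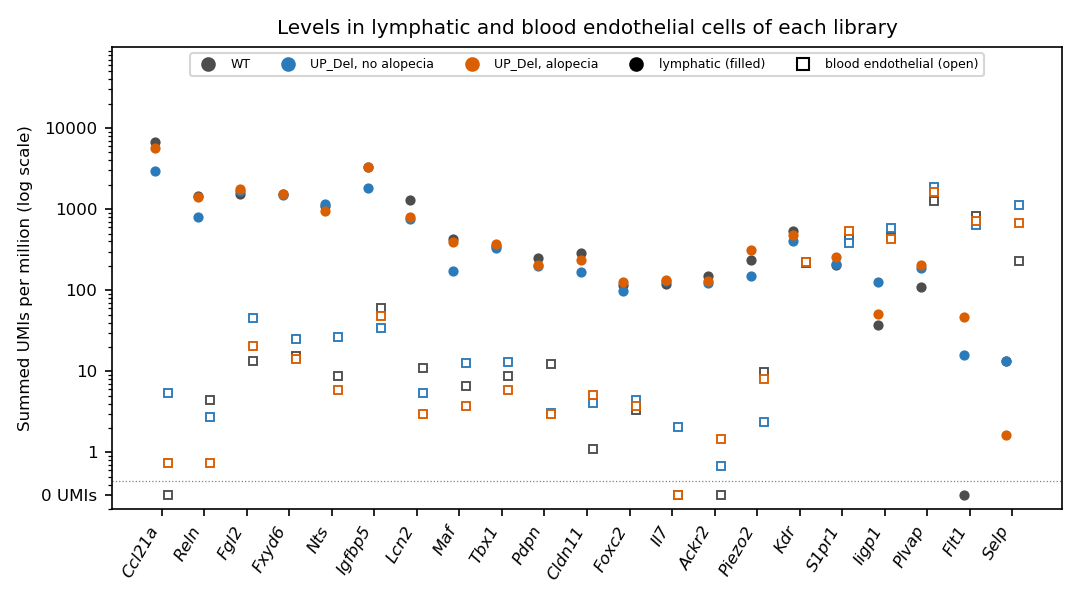
Levels of 21 genes in CPM (log axis) in lymphatic cells (filled circles) and blood endothelial cells (open squares) of the 3 CD45-negative libraries, with genes of 0 UMIs on the marked bottom line. Ccl21a and Reln lie far above their blood endothelial levels in every library, Kdr lies close to them, and Flt1 and Selp lie below.

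The list of initial capillaries, the blind-ended uptake vessels, was mixed. Of 10 members tested, 5 were higher in lymphatic cells and 3 lower, with a median of 2.02. Besides Ccl21a, Reln and Pdpn, the scavenger receptor genes Stab1 (395, 296 and 359 CPM, 3.66) and Mrc1 (16.7, 17.9 and 24.8 CPM, 4.21) were higher. Cd36 (-4.44), Aqp1 (-5.12) and Itih5 (-1.88) were lower, and Marco had no UMI in any lymphatic cell.

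Genes of collecting vessels and valves were present as well: 11 of 17 members tested were higher and 2 lower, with a median of 1.39. Cldn11 (chr3:31149920-31164324, plus strand), a claudin of lymphatic valve cells, stood at 288, 166 and 235 CPM against 1.11, 4.11 and 5.17 CPM (5.64, adjusted p = 2.9e-06). Foxc2 (chr8:121116171-121118895, plus strand), a transcription factor that valve formation needs, stood at 117, 99.1 and 127 CPM (4.66). Foxp2 (4.91), Sema3a (4.81), Adgrg3 (4.15), the valve integrin gene Itga9 (2.52) and the calcineurin target Nfatc1 (1.54) were also higher. Gata2, another valve factor, did not pass (73.6, 65.2 and 49.7 CPM, 0.09, adjusted p = 0.79). The connexin genes parted: Gja4 was higher (1.39) and Gja1 lower (-1.06).

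The lymphatic cells differed among themselves in some genes of these lists. A UMI of Cldn11 or Foxc2 was found in 36, 130 and 68 cells, which is 55.4%, 48.7% and 56.2% of each library's lymphatic cells. This split was chosen after seeing the data and is a description. Cells with such a UMI had Ccl21a at 4033, 2025 and 4457 CPM, and cells without had 10406, 3990.1 and 7540.5 CPM. Reln ran the same way, at 989.8, 553 and 1173 CPM with and 2149, 1065 and 1775 CPM without. Itga9 ran the other way, at 290.1, 249.6 and 273 CPM with and 146, 129 and 188 CPM without. Fn1, the gene of fibronectin, whose matrix fills valve leaflets, did so too, at 592, 354 and 373 CPM with and 73.0, 160.3 and 122 CPM without. Other members did not follow the lists. The valve gene Adgrg3 stood at 171, 128 and 156 CPM with and 211, 201 and 233 CPM without, Foxp2 at 193, 149 and 245 CPM with and 81.1, 151 and 139 CPM without, and Nfatc1 at 461, 361 and 270.2 CPM with and 276, 265 and 302 CPM without. The capillary gene Pdpn stood at 199, 203 and 214 CPM with and 324, 195 and 196 CPM without. Median depth was 4359, 3868.5 and 4462.5 UMIs with and 4391, 3450.0 and 3706 UMIs without, so the cells with a valve UMI were deeper in both UP_Del libraries.

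Of the 10 listed growth factor ligands and their processing genes, 5 could be tested, of which 3 were higher in lymphatic cells and 1 lower. The list summed to 451, 339 and 379 CPM in lymphatic and 103, 108 and 102 CPM in blood endothelial cells, with Adm as its highest member. Vegfc, the main lymphatic growth factor, was at 0, 0 and 1.66 CPM in lymphatic and 16.6, 26.4 and 25.8 CPM in blood endothelial cells (-5.44, adjusted p = 5.3e-04). Adm, the gene of adrenomedullin, a peptide that lymphatic growth needs, stood at 354, 156 and 259.9 CPM and was higher in lymphatic cells (2.96). Vegfb (2.00) and Pgf (1.62) were higher too, at levels under 100 CPM, while Vegfa did not pass (0.98, adjusted p = 0.26).

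The VEGF and adrenomedullin receptor list was mixed: of 11 members tested, 3 were higher in lymphatic cells and 4 lower, with a median of 0.06. Flt1, the gene of VEGFR1, stood at 0, 16.1 and 46.4 CPM in lymphatic and 830.0, 632 and 719 CPM in blood endothelial cells (-5.07, adjusted p = 4.8e-05). After each cell was thinned to 2000 UMIs, a UMI of Flt1 was found in 0, 2.11 and 1.79% of lymphatic cells, and in 67.8 to 73.5% of blood endothelial cells. Nrp1, a co-receptor of blood vessels, was at 0, 0.893 and 14.9 CPM against 204, 119.8 and 246 CPM (-5.18). Kdr, the gene of VEGFR2, was present in both and somewhat higher in lymphatic cells (532, 405 and 483 against 218, 225 and 224 CPM, 0.99, adjusted p = 7.8e-04). Nrp2, the co-receptor of VEGFR3, did not pass (221, 222 and 179 against 154, 190.4 and 186 CPM, adjusted p = 0.56). In the adrenomedullin system, Calcrl (0.06) and Ramp2 (0.43), which form its receptor, did not pass, and the scavenging receptor gene Ackr3 was higher (291, 238 and 288 CPM, 3.32). In the angiopoietin system Tie1 (0.77) and the ligand gene Angpt2 (1.25) were higher and the receptor gene Tek lower (-1.21).

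Several chemokine genes were lower in lymphatic than in blood endothelial cells. Of 12 chemokine and scavenger genes tested, 3 were higher, namely Ccl21a, Ackr2 and Ackr3, and 5 lower. Ackr2, a scavenger of inflammatory CC chemokines, stood at 150.4, 124 and 129 CPM against 0, 0.685 and 1.48 CPM (7.13, adjusted p = 2.8e-06). Cxcl9, an interferon-induced chemokine that draws T cells, had 0 UMIs in the lymphatic cells of all 3 libraries, which allows up to 10.0, 2.68 and 4.97 CPM, and 3.32, 14.4 and 16.2 CPM in blood endothelial cells. Cxcl10 was at 0, 7.14 and 0 CPM against 29.8, 68.1 and 64.9 CPM (-4.07). Cxcl12 (-3.42), Cx3cl1 (-3.45) and Cxcl16 (-1.04) were lower as well. The inflammatory chemokine gene Cxcl1 was not scarce, at 214 CPM in WT and 94.7 CPM without alopecia. Blood endothelial cells had it at 169 and 320 CPM there, and the WT lymphatic value came from few cells.

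Adhesion molecules for leukocyte entry were mostly lower: 10 of 17 against 5 higher, with a median of -0.90. Selp, the gene of P-selectin, was at 13.4, 13.4 and 1.66 CPM, in 1 cell per library, against 232, 1116 and 682 CPM in blood endothelial cells (-6.48, adjusted p = 6.9e-06). Sele, the gene of E-selectin, was at 0, 5.36 and 0 CPM against 65.2, 321 and 204 CPM (-6.48), and Vcam1 at 0, 1.79 and 1.66 CPM (-3.81). Icam1 was less far apart, at 247, 397 and 122 CPM against 338, 612 and 331 CPM (-0.90, adjusted p = 0.0054). Stab1, Mrc1, Sema3a, F11r and Cd47 were the 5 that were higher.

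Signals to lymphocytes included Il7. This gene of the survival cytokine IL-7 stood at 120.4, 129.5 and 134 CPM in lymphatic and 0, 2.05 and 0 CPM in blood endothelial cells (6.63, adjusted p = 8.2e-06), and the 3 lymphatic levels lay close together. Tgfb1 (398, 263 and 323 CPM, 1.26), Tgfb2 (2.03) and Lgals1 (1.13) were higher too. Il6 was at 0, 15.2 and 0 CPM against 333, 573 and 254 CPM (-5.95), and Il15, Csf1, Cd274 and Cd200 were lower. Over the list, 6 of 13 members tested were higher and 7 lower. S1pr1, the receptor for sphingosine 1-phosphate, was lower at 207, 209 and 257 against 441, 380.4 and 542 CPM (-1.08), while the transporter gene Spns2 did not pass (0.12).

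Junction genes were higher for 6 and lower for 7 of 17 members. Cldn5, the main endothelial claudin, stood at 2668, 1859 and 2425 CPM against 418, 579 and 479.6 CPM (2.15, adjusted p = 4.4e-05). Plvap, which forms the diaphragms of blood capillaries, was lower at 110.3, 188 and 205 against 1255, 1897 and 1607 CPM (-3.33), as was Esam (-3.40). Of 19 genes of basement membrane and matrix, 8 were higher and 8 lower. Col4a1 (-0.97), Col4a2 (-1.98) and Hspg2 (-1.56), which build the vascular basement membrane, were lower, and Lama4 (1.49), Lamb1 (1.12), Timp2 (2.10) and Timp3 (1.26) higher.

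Among 17 genes of flow and mechanosensing, 7 were higher and 4 lower. Piezo2, a stretch-gated channel, stood at 237, 148 and 311 CPM against 9.95, 2.40 and 8.12 CPM (5.18, adjusted p = 2.2e-06), while Piezo1 did not pass (0.39). Klf2, a flow-induced factor, was slightly higher at 1508, 1899.7 and 1182 CPM (0.43). In the Notch list Notch2 (2.06) and Hes1 (1.26) were higher and Notch4 (-2.88), Jag1 (-1.70) and Jag2 (-2.94) lower, out of 11 tested. Lipid uptake genes of blood capillaries, namely Fabp4 (-5.63), Fabp5 (-5.11), Cd36 (-4.44) and Scarb1 (-6.05), were the 4 of 17 lipid genes that were lower.

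Most listed interferon genes were lower in lymphatic than in blood endothelial cells. Of 21 genes of the interferon gamma response tested, 16 were lower and 1 higher, with a median of -1.51. The summed level of the 22 listed genes was 1046, 1478 and 722 CPM in lymphatic and 2242, 3055 and 2179 CPM in blood endothelial cells. Iigp1, a GTPase against intracellular pathogens, was at 36.8, 127 and 51.3 CPM against 455, 592 and 424 CPM (-2.86, adjusted p = 2.9e-05). The member that was higher was Irf8 (40.1, 62.5 and 18.2 against 12.2, 23.6 and 12.5 CPM, 1.17, adjusted p = 0.011). Of the type I interferon genes 14 of 18 were lower and 1, Ifi27, higher, with a median of -1.82. Their sum did not follow the count, at 3962, 4178 and 3640.1 CPM in lymphatic and 3827, 5464 and 3845 CPM in blood endothelial cells. Most of it was Ifitm3, an antiviral membrane protein gene, which did not pass (3143, 3352 and 2932 against 2496, 3606 and 2425 CPM, 0.09, adjusted p = 0.62). In the MHC class I list 10 of 16 were lower and 1, H2-T23, higher, but by less, with a median of -0.51.

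Cell cycle genes were lower in lymphatic cells for all 16 members tested, with a median of -3.33. The 17 listed genes summed to 264, 307 and 169 CPM in lymphatic and 1170.3, 715 and 754 CPM in blood endothelial cells. Most of the lymphatic sum came from Hmgb2 (76.9, 105 and 43.0 CPM), Pcna (76.9, 84.0 and 54.6 CPM) and Stmn1 (40.1, 65.2 and 33.1 CPM). Mki67 was at 6.69, 2.68 and 1.66 CPM against 95, 40.7 and 35.4 CPM (-4.03), and Top2a at 0, 0 and 1.66 CPM against 66.3, 26.0 and 31.7 CPM (-5.89). Of 18 genes of hypoxia and glycolysis 9 were lower and 0 higher, with a median of -0.48, Ldha among the lower (-1.07).

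**Figure D2:**
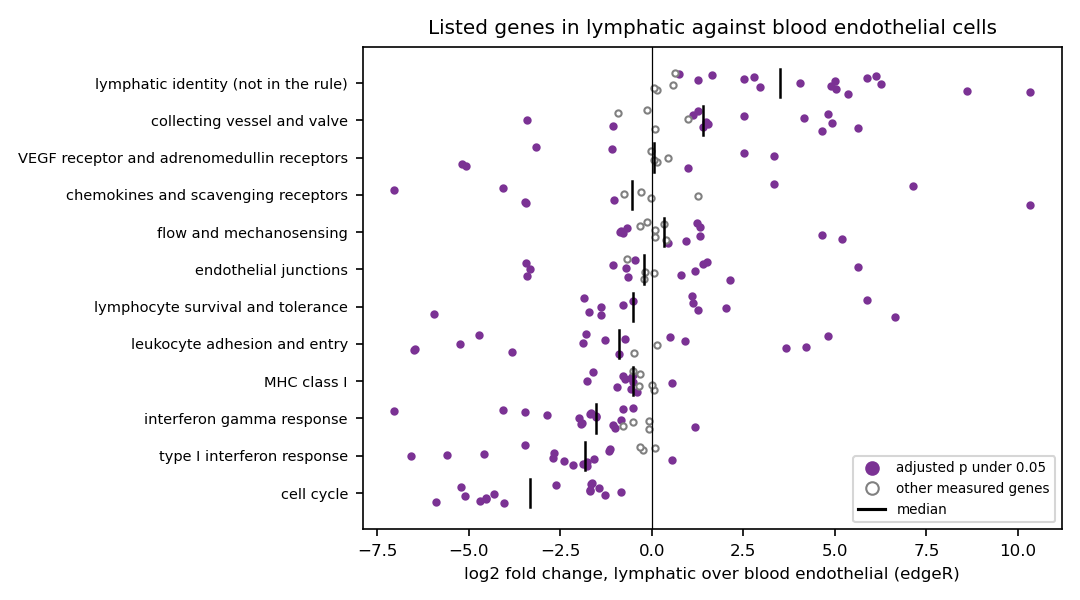
Log2 difference of lymphatic minus blood endothelial cells, from edgeR over 3 libraries, for each tested member of 12 gene lists, with purple points for an adjusted p under 0.05, open grey points for the rest and a black bar at the list's median. The median of lymphatic identity is at 3.50, and those of the interferon gamma response and the cell cycle are at -1.51 and -3.33.

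Lymphatic cells made up 1.94% of CD45-negative cells in WT (95% Clopper-Pearson interval 1.5 to 2.46), 1.72% without alopecia (1.53 to 1.94) and 2.44% with alopecia (2.03 to 2.91). Intervals here cover counting error only. With alopecia the share was 1.42 times that without, and 1.09 times when no cell filter was applied. The filter removed unequal parts of the libraries. Without the filter the shares were 1.42, 1.61 and 1.75%. Among endothelial cells, where both classes passed the same filter, lymphatic cells were 26.9% (21.4 to 32.9), 29.3% (26.4 to 32.4) and 32.5% (27.8 to 37.5), and these intervals overlapped. Thinned to 2000 UMIs per cell, the shares of endothelial cells were 26.9, 27.2 and 31.0%.

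**Figure D3:**
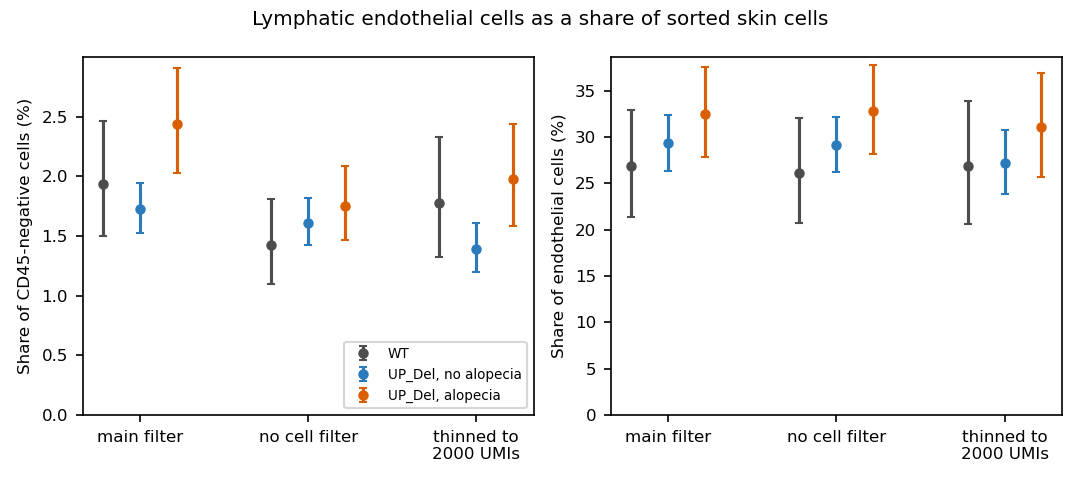
Lymphatic cells as a percentage of CD45-negative cells (left) and of endothelial cells (right) in the 3 groups, with the cell filter, without it, and with each cell thinned to 2000 UMIs, each with its 95% Clopper-Pearson interval. The share of endothelial cells lies between 26.1 and 32.8% under all 3 treatments.

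For the groups, genes with at least 30 UMIs over a pair of libraries were compared by the ratio of their CPM, and a ratio of at least 1.5-fold was counted. Between alopecia and no alopecia, 11.9% of 7261 genes were higher and 11.8% lower by that measure, 23.7% in either direction. Between no alopecia and WT, 16.8% of 6549 genes were higher and 10.9% lower (27.7% in all), and between alopecia and WT 12.0% of 4916 and 8.14% (20.1% in all). The library without alopecia holds most of the lymphatic UMIs in each pair it belongs to, so it decides in large part which genes reach 30. For that reason the sum over every member of a list is given beside the count of measured members. Comparisons that share a library are not independent of each other. In a sum over cells, fewer cells that express a gene and less RNA per cell cannot be told apart.

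The listed genes of lymphatic identity were expressed in every group, with a lower sum in the library without alopecia. Each cell was chosen by UMIs of the 4 lymphatic markers, so a cell without them could not be counted. Whether cells lost their identity is therefore not shown. The 20 genes summed to 19515, 13641 and 18219 CPM (95% Poisson intervals 19018 to 20023, 13425 to 13859 and 17880.1 to 18562). The same genes summed to 1853, 1588 and 1896 CPM in blood endothelial cells. Most of the gap between the lymphatic sums came from Ccl21a, whose reads may be shared among near-identical copies. Alopecia against no alopecia gave 5 of 20 members higher, beside 11.9% of all genes, and 0 lower, with a median log2 ratio of 0.30 against 0.00 over all genes. The list ran the other way in blood endothelial cells, with a median of -0.31. There 1 of 17 was higher, beside 13.8% of all genes, and 7 lower, beside 7.66%. The 5 were Ccl21a at 0.94 (95% interval 0.87 to 1.01), Reln at 0.82 (95% interval 0.69 to 0.96), Maf at 1.19 (95% interval 0.91 to 1.47), Sox18 at 0.64 and Hoxd8 at 0.61. No alopecia against WT gave 4 of 20 lower, beside 10.9% of all genes, and 0 higher, with Ccl21a at -1.16, Reln at -0.87 and Maf at -1.31. Sned1 was the fourth. Between alopecia and WT 0 of 20 were lower, and the median was -0.06.

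Other measures moved with this. The library without alopecia also had the lower marker count per cell and the keratinocyte RNA given above. Without the cells holding keratinocyte RNA, the log2 ratio of alopecia to no alopecia was 0.76 for Ccl21a and 0.66 for Reln. With at least 5 marker UMIs per cell these log2 ratios were 0.91 and 0.75. Ccl21a was seen in nearly the same share of thinned cells, 69.4, 67.1 and 68.8%, while Reln was seen in 79.0, 64.1 and 81.2%. Fgl2, Fxyd6, Nts, Il7, Ackr2 and Tbx1 differed by less than 1.5-fold between any pair of the 3 libraries.

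**Figure D4:**
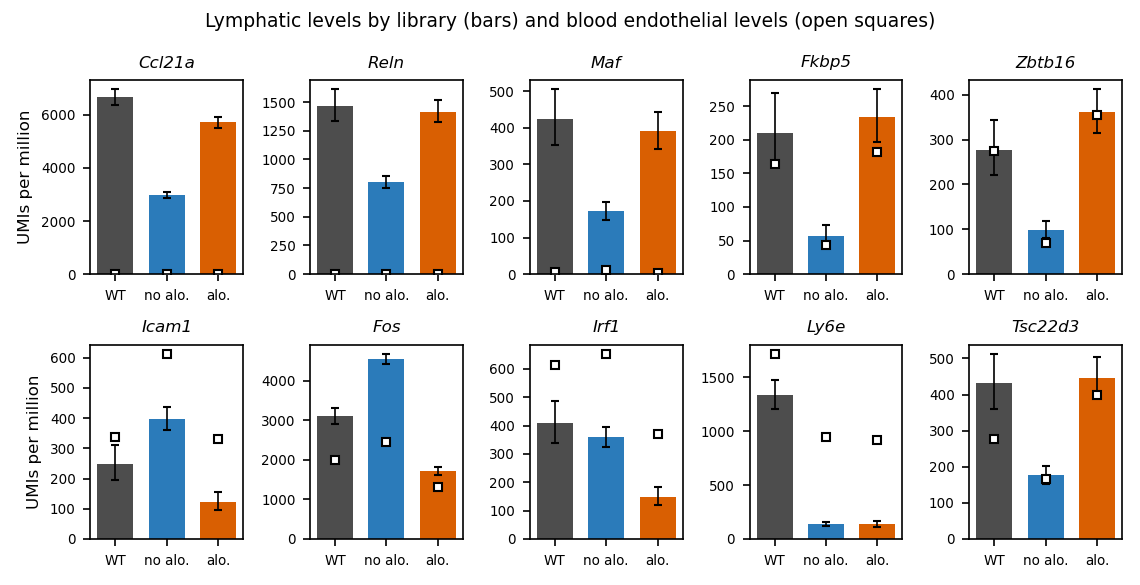
Levels in lymphatic cells (bars, CPM with 95% Poisson intervals) and in blood endothelial cells (open squares) for 10 genes in the 3 groups. Fkbp5 and Zbtb16 are low without alopecia in both cell classes, and Ly6e is high in WT lymphatic cells at 1337, 137 and 136 CPM.

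Interferon gamma response genes were highest in lymphatic cells without alopecia. The 22 genes summed to 1046, 1478 and 722 CPM (95% intervals 934 to 1169, 1408 to 1551 and 656 to 793), so the group with alopecia lay below WT as well, a gap made up mostly by Irf1. In blood endothelial cells the sums were 2242, 3055 and 2179 CPM and in the remaining CD45-negative cells 449, 537 and 330.2 CPM. Between alopecia and no alopecia 12 of 17 measured members were lower and 0 higher, beside 11.8% of all genes lower, with a median of -1.27. In blood endothelial cells 8 of 21 were lower and 0 higher, beside 7.66% of all genes lower there, with a median of -0.42. Between no alopecia and WT 10 of 16 were higher, beside 16.8% of all genes, and 1, Irgm2, lower, beside 10.9%, with a median of 0.80. In blood endothelial cells 10 of 21 were higher in this pair, beside 10.5% of all genes there, and 1 lower, beside 12.6%, with a median of 0.56. The lymphatic excess over WT depended on the marker threshold: with cells of 2 marker UMIs included it was 4 members with a median of 0.17. The 12 WT cells so added had Flt1 at 796 CPM and Ccl21a at 72.4 CPM. The library without alopecia decides in large part which members are measured in the pairs it belongs to. The counts in those pairs are therefore in part set by that choice. In the pair without that library, alopecia against WT, 7 members were measured. Of these 0 were higher and 1, Irf1, lower, with a median of 0.10.

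Single members show how far this goes. Irf1 (chr11:53770014-53778374, plus strand), a transcription factor induced by interferon gamma, stood at 408, 358 and 149 CPM, so that alopecia was 2.40-fold (95% interval 1.91 to 3.06) lower than no alopecia and 2.74-fold lower than WT. The WT value of Irf1 rests in part on 1 of 23 cells, which held 35.2% of its UMIs. In blood endothelial cells Irf1 stood at 614, 653 and 371 CPM. The guanylate-binding protein genes Gbp2 (33.4, 122 and 38.1 CPM), Gbp4 (23.4, 57.2 and 16.6 CPM) and Gbp6 (36.8, 71.4 and 21.5 CPM) were highest without alopecia, although 1 cell held 41.6% of the Gbp2 UMIs there. Blood endothelial cells had Gbp2 at 68.5, 129.8 and 119 CPM, Gbp4 at 102, 141 and 123 CPM and Gbp6 at 37.6, 90.7 and 40.6 CPM. Irgm1 (-1.39), Igtp (-1.92), Iigp1 (-1.31) and Irf8 (-1.78) were lower with alopecia than without, in log2 units. Psmb8, an immunoproteasome subunit, was nearly level at 107, 138 and 109 CPM.

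The promoters of these genes were read from RefSeq (GRCm38.p6), from 250 bases before the start site to 50 after it, because interferon gamma acts through the GAS element TTCNNNGAA and interferon regulatory factors bind repeats of GAAA. On either strand, GAS was found in 9 of the 16 interferon gamma genes with a window, against 9.55% of 27025 genes. The core GAAANNGAAA was found in 10 of 16, against 3.99% of all genes. A match is a match of letters and shows no binding. The following 4 show such matches in genes described here, were chosen after their values were seen, and are given with the match in capitals: GAS in Irf1 (chr11:53769764-53770063, plus strand), the core in Gbp2 (chr3:142620413-142620712, plus strand, read on the opposite strand), GAS at 2 places in Irf8 (chr8:120736108-120736407, plus strand) and GAS in Socs3 (chr11:117969317-117969616, minus strand).
Irf1: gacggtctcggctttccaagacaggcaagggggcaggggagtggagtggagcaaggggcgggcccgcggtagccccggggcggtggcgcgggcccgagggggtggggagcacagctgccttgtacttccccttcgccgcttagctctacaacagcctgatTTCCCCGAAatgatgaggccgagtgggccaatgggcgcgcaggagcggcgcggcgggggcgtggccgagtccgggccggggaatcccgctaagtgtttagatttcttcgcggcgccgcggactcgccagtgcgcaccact
Gbp2: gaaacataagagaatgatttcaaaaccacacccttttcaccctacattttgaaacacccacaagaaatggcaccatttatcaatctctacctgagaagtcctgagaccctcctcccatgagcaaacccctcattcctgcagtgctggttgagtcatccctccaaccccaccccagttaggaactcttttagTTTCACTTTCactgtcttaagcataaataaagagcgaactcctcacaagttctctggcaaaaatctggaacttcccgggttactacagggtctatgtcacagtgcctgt
Irf8: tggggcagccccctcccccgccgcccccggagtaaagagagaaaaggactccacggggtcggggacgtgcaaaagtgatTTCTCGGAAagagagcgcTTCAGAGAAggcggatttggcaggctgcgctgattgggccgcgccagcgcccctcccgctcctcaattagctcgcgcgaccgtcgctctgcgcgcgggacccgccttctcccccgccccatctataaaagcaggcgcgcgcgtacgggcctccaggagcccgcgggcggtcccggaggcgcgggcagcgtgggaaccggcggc
Socs3: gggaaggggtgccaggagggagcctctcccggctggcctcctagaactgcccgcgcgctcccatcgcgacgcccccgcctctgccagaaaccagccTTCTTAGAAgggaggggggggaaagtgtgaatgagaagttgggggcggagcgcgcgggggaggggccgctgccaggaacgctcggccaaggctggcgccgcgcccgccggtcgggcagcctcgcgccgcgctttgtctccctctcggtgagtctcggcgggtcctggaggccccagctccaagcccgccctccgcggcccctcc

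Signalling genes below cytokine receptors ran alike. The 17 genes of the IL-2 receptor and JAK-STAT list summed to 1859, 2261 and 1318 CPM in lymphatic, 2063, 3019 and 2069.8 CPM in blood endothelial and 1119, 1433 and 858 CPM in the remaining cells. Between alopecia and no alopecia 6 of 12 measured members were lower, beside 11.8% of all genes, and 0 higher, with a median of -0.44. The blood endothelial count was 6 of 14 lower, beside 7.66%, and 0 higher, with a median of -0.41. Socs3, a feedback inhibitor of JAK signalling, stood at 759, 1156 and 487 CPM, 2.37-fold (95% interval 2.09 to 2.70) lower with alopecia than without, against 637, 1075 and 657 CPM in blood endothelial cells. Socs1 (16.7, 63.4 and 13.2 CPM) and Cish (33.4, 72.3 and 14.9 CPM) had the same order of groups at lower levels. Il2ra, whose enhancer is deleted in both UP_Del groups, had 0 UMIs in the lymphatic cells of each library, as had Il2rb and Il7r, which allows the same 10.0, 2.68 and 4.97 CPM as for Cxcl9. The common chain gene Il2rg stood at 70.2, 58.9 and 48.0 CPM.

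MHC class I genes summed to 5828, 6682 and 5479 CPM in lymphatic and 5865, 7512 and 6967 CPM in blood endothelial cells. Between alopecia and no alopecia 3 of 16 (Tap1, Nlrc5 and H2-Q7) were lower, beside 11.8% of all genes, and 0 higher, with a median of -0.34. The blood endothelial count was 0 of 16 in either direction, with a median of -0.12. H2-K1 stood at 1069.9, 1308 and 1084 CPM and B2m at 1066, 1178 and 915 CPM. MHC class II genes were low, at 134, 169 and 26.5 CPM in all against 38.7, 209.9 and 70.1 CPM in blood endothelial cells, and the Cd74 UMIs without alopecia came from 14 cells, of which 1 held 57.9%. Icam1, which leukocytes grip on cytokine-exposed endothelium, stood at 247, 397 and 122 CPM, 3.24-fold (95% interval 2.53 to 4.20) lower with alopecia than without. Blood endothelial Icam1 was 338, 612 and 331 CPM, and in WT lymphatic cells 14 cells carried it, of which 1 held 39.2%.

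Immediate early genes, which cell dissociation can induce, were lowest with alopecia. The 26 genes summed to 24076, 29716 and 15741 CPM in lymphatic, 23113, 29548 and 18212 CPM in blood endothelial and 19477, 27263 and 14493 CPM in the remaining CD45-negative cells, with the same order of groups in each class. Between alopecia and no alopecia 20 of 25 measured members were lower in lymphatic cells and 0 higher, beside 11.8% of all genes lower, with a median of -0.83. In blood endothelial cells 14 of 26 were lower, beside 7.66% of all genes there, with a median of -0.59. Between alopecia and WT 12 of 25 were lower in lymphatic cells, beside 8.14% of all genes. Fos stood at 3096, 4549 and 1708 CPM, 2.66-fold (95% interval 2.49 to 2.85) lower with alopecia than without, with 1997, 2451 and 1318 CPM in blood endothelial cells. Atf3 (1301, 1624 and 637 CPM), Zfp36 (1461, 2034 and 853 CPM) and Egr1 (1799, 1998 and 998 CPM) had the same order. Socs3 belongs to this list as well. These genes moved with the interferon and JAK-STAT results, and their part in them was not tested.

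Some glucocorticoid-induced genes were lowest without alopecia. Fkbp5 (chr17:28399094-28517527, minus strand), a co-chaperone of the glucocorticoid receptor, stood at 211, 57.2 and 233 CPM, 4.08-fold (95% interval 3.02 to 5.58) higher with alopecia than without. Blood endothelial cells had Fkbp5 at 164, 42.8 and 182 CPM and the remaining cells at 122, 24.1 and 101 CPM, so the same order of groups was seen in each class. Zbtb16 stood at 278, 97.3 and 361 CPM, 3.71-fold (95% interval 2.93 to 4.71) higher with alopecia, and at 274, 68.5 and 354 CPM in blood endothelial cells. Tsc22d3, which encodes GILZ, stood at 431, 176 and 447 CPM, 2.54-fold (95% interval 2.11 to 3.07) higher, and at 276, 165 and 399.9 CPM in blood endothelial cells. WT and alopecia lay close together for these genes. The list as a whole did not move one way. Its 15 genes summed to 5039, 5132 and 5233 CPM in lymphatic and 8338, 8394 and 6594 CPM in blood endothelial cells. In the remaining cells the sums were 8693, 12503 and 8176 CPM. Mt1 (150.4, 1260.2 and 137 CPM) and Mt2 (23.4, 288 and 46.4 CPM) were highest without alopecia, in 64 and 41 cells. With alopecia against without, 5 of 14 measured members were higher (Fkbp5, Zbtb16, Tsc22d3, Txnip and Glul), beside 11.9% of all genes. Another 3 (Cdkn1a and the metallothionein genes) were lower, beside 11.8%. In blood endothelial cells 6 of 15 were higher, beside 13.8% of all genes there, and 3 lower, beside 7.66%.

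Further genes seen in at least 30% of the lymphatic cells of the higher library, a condition added after seeing the data, separated alopecia from no alopecia. Nhsl2 (3.35-fold), Sesn1 (2.97-fold), Fam102b (2.80-fold), Spsb1 (2.60-fold), Tns1 (2.59-fold) and Camk1d (2.31-fold) were higher with alopecia. In blood endothelial cells the log2 ratio of Camk1d was 0.97. Spsb1 was level there (log2 ratio 0.01), and Aph1b was 3.26-fold higher in lymphatic cells but not in blood endothelial cells (-0.25), with the caution that it has a close paralog. Apoe was 3.05-fold lower (251, 1221 and 401 CPM), and its log2 ratio of -1.61 became -0.64 without the cells holding keratinocyte RNA. Apoe stood at 723, 1388 and 1050.0 CPM in blood endothelial cells. Snhg1 was 2.93-fold lower.

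WT lymphatic cells differed from both UP_Del libraries in Ly6e (chr15:74955051-74959905, plus strand), the gene of a GPI-anchored surface protein. It stood at 1337, 137 and 136 CPM and was seen in 59 of 65 WT cells. WT was 9.79-fold (95% interval 8.10 to 11.9) above no alopecia and 9.85-fold (95% interval 7.75 to 12.7) above alopecia. In blood endothelial cells Ly6e stood at 1717, 944 and 914 CPM and in the remaining cells at 152, 158 and 139 CPM, which were level. Plac9b stood at 107, 2.68 and 18.2 CPM and has near-identical copies, which makes its level uncertain.

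Several matrix genes were higher with alopecia. The 19 genes of basement membrane and matrix summed to 5206, 4667 and 5953 CPM (95% intervals 4950.3 to 5471, 4541 to 4795 and 5759.7 to 6150.5), and in blood endothelial cells to 6814, 5634 and 6915 CPM. Against WT 7 of 17 measured members were at least 1.5-fold higher and 0 lower, beside 12.0% of all genes, with a median of 0.42. In blood endothelial cells 0 of 18 were higher, beside 10.2% of all genes, and 3 (Nid2, Lama4 and Mgp) lower, beside 6.18%. Against no alopecia 6 of 18 measured members were higher in lymphatic cells, beside 11.9% of all genes, and 0 lower, with a median of 0.29. Blood endothelial cells moved alike in that pair. There 6 of 18 were higher, beside 13.8% of all genes, and 1 lower, beside 7.66%, with a median of 0.30. Lamb1, a laminin chain, stood at 90.3, 149 and 204 CPM, 2.26-fold (95% interval 1.48 to 3.56) higher with alopecia than in WT. Col4a1 stood at 271, 173 and 301 CPM, Col4a2 at 73.6, 54.5 and 129 CPM and Emilin1, which anchors lymphatic vessels to elastic fibres, at 33.4, 13.4 and 53.0 CPM. Colec12 (2.20-fold) and Plod1 (2.20-fold) were also higher; they lie outside the list and were named by the condition added after seeing the data. Part of the sum came from few cells: Sparc at 43.5, 114 and 415 CPM was carried by 8 cells with alopecia, of which 1 held 55.8%. RNA of other cell types was also uneven in lymphatic cells. Fibroblast markers summed to 16.7, 1339.7 and 907 CPM there, and blood endothelial markers to 358, 671 and 998 CPM. The part of such RNA in the matrix result was not tested.

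**Figure D5:**
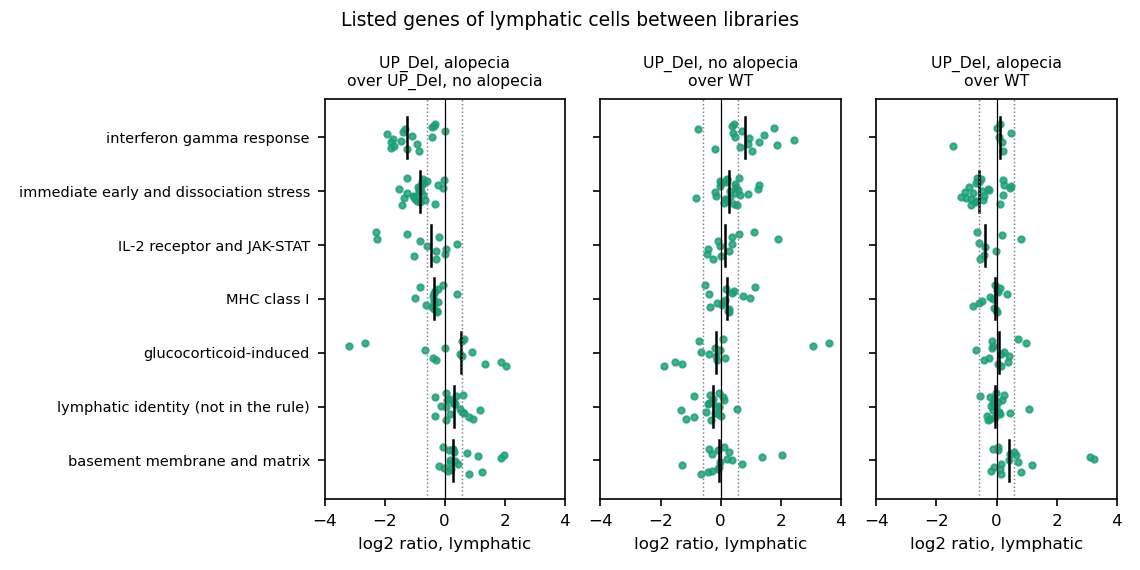
Log2 ratios between groups in lymphatic cells for the members of 7 gene lists with at least 30 UMIs over the pair, with dotted lines at 1.5-fold and a black bar at the median. The medians of the interferon gamma and immediate early members are at -1.27 and -0.83 in alopecia against no alopecia.

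The naming rule fixed for groups, which did not ask how many cells carry a gene, named genes of other cell types. With alopecia against no alopecia it named Rbp7 (14.1-fold), Cd36 (11.4-fold), Fabp4 (9.45-fold), Cxcl12 (5.56-fold), Ly6c1 (4.85-fold), Sparc, Igfbp7 and Fibin as higher besides Fkbp5 and Zbtb16. Rbp7, Cd36, Fabp4 and Ly6c1 are genes of blood capillaries, and 1 cell held 58 to 69% of the UMIs of each. On the lower side it named Dmkn, Krt10, Dsp, Csf3, Krtdap, Lgals7, Krt1, Fxyd3, Krt17 and Krt79, of which all but Csf3 are epithelial genes, in 8 to 42 cells of the library without alopecia. Against WT that library's higher genes were Krtdap, Lgals7, Col1a1, Dsp, Dcn and Col1a2, in 10 to 42 cells, and its lower genes Plac9b, Ly6e, Spp1, Aph1b and Fkbp5. Between alopecia and WT the rule named Ly6c1, Col3a1, Col1a1, Col1a2, Fabp4 and Sparc as higher, in 2 to 8 cells. It named Ly6e, Plac9b, Phlda1 (5.44-fold), Akap12 (3.29-fold), Gem (2.65-fold) and Irf1 as lower. How much of this is RNA of neighbouring cells was not tested.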

How the data were processed

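The deposited files are UMI counts per gene and cell of 6 libraries, made with Cell Ranger 7.1.0 on mm10 per the submitters' processing notes; the 3 CD45-negative libraries were used for the comparisons. Their filtered matrices held 4575, 16751 and 7123 barcodes with 25735064, 116334373 and 41014981 UMIs (WT, UP_Del without alopecia, UP_Del with alopecia) and 32285 genes. Cells were taken by the marker rule, and UMIs were summed per library and class. The members and gene lists were chosen with earlier results of these data known.

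Lymphatic and blood endothelial sums were compared with edgeR 4.0.16 (R 4.3.3; quasi-likelihood, TMM, filterByExpr, library as block, Benjamini-Hochberg threshold 0.05); DESeq2 1.42.0 was an alternative, and the script was tested on simulated data. Groups, with 1 library each, were compared by CPM ratios with exact 95% intervals (conditional binomial, Poisson, Clopper-Pearson), which cover counting error only, and a count of 0 is set to 3 in a ratio. An automatic doublet caller marked at most 0.04% of cells and was not used; a fixed rate of 0.4% per 1000 barcodes, by highest doublet score, was an alternative. No barcode was lymphatic in more than 1 library.

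Named genes were, for the cell classes, the 20 with the largest difference and 6 on the blood side among genes past the threshold with at least 100 CPM in each library. For groups, they were those with at least 100 CPM and the interval bound farthest from 1, 10 each way for alopecia against no alopecia and 6 otherwise. Some genes these rules name are not reported here. Gene coordinates are from GENCODE and promoters from RefSeq.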

Additional observations from a re-analysis of the deposited data

Results flagged for a closer look

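Cells that met the lymphatic rule also appeared in the CD45-positive libraries, which the comparisons did not use. They were 4 of 6487 cells in WT (0.0617%, 95% Clopper-Pearson interval 0.0168 to 0.158), 0 of 3278 without alopecia, which allows up to 0.0915%, and 20 of 9206 with alopecia (0.217%, 0.133 to 0.335). Ccl21a was seen in 3 of the 4 and in 15 of the 20, at 2121 and 3711 CPM in all. Of these cells 1 in WT and 2 with alopecia had at least 3 UMIs of leukocyte markers, and Ptprc stood at 359 and 89.3 CPM in the sums. The 4 WT cells had a median of 20706 UMIs, against 4382 in the CD45-negative lymphatic cells, and held C1qa at 407 CPM and Mrc1 at 156 CPM. The 20 cells with alopecia had a median of 5811.5 UMIs, C1qa at 0 and Mrc1 at 17.9 CPM. The part of doublets in these cells was not tested.

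In 6 listed genes the lymphatic and the blood endothelial cells differed between groups in opposite directions, each by more than its counting interval. These 6 were picked by that condition from the listed genes over all group comparisons. Counting intervals leave out differences between libraries. How many genes would meet the condition without a group effect was not tested. The difference between the 2 classes was not tested, since each group has 1 library. Maf, the transcription factor of lymphatic identity, had a log2 ratio of 1.19 between alopecia and no alopecia in lymphatic cells and of -1.78 in blood endothelial cells, where it rested on 5 and 37 UMIs. Lamb1, a laminin chain, had 0.72 between no alopecia and WT in lymphatic and -1.08 in blood endothelial cells. Vegfa had 1.33 in the same comparison against -1.88, on 47 and 5 UMIs in lymphatic cells. Vcl, the gene of the junction protein vinculin, had 0.95 between alopecia and WT against -0.60. Neo1 had -1.58 between alopecia and no alopecia against 0.81, and 1 of 29 cells held 25.0% of its UMIs without alopecia. Cxcl1 had -1.18 between no alopecia and WT against 0.92, but in WT it came from 2 lymphatic cells.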

How the results depend on the processing

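No paired analysis was possible because the labels carry no replicate numbers and each group has 1 library; this concerns the groups, while the cell classes were paired by library, and without that block 2267 genes passed. The alternatives were cell filters, marker thresholds, doublet removal, scaling, count minimums and a left-out library. Leaving out cells with keratinocyte RNA, and naming only genes seen in at least 30% of cells, were chosen after seeing the data.

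Of 54 share values 46 moved by less than their counting interval. The others were 1.42% in WT and 1.75% with alopecia without a cell filter, 1.39% and 1.98% without and with alopecia after thinning, 1.39% and 1.43% without alopecia at 5 marker or 3 endothelial UMIs, and 25.0% and 25.5% of endothelial cells there. Between the classes, DESeq2 called 1680 genes, 763 higher and 917 lower, and leaving out 1 library gave 2028 to 2555, 953 to 1187 higher and 1075 to 1368 lower. All 390 values of named genes kept direction and side of the threshold. Genes at least 1.5-fold apart numbered 2715, 2984 and 2033 with at least 15 summed UMIs, and 498, 448 and 140 with at least 100 (alopecia against no alopecia, no alopecia against WT, alopecia against WT), from 1722, 1812 and 990. Members of lymphatic identity higher with alopecia than without were 3 at 5 marker UMIs and 3 by the mean over cells, and interferon gamma members lower were 5 of 8 measured at 100 summed UMIs (median -0.96).

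Of 3014 group values of named genes 2824 moved by less than their interval, 181 moved more and 9 changed sign. At 5 marker UMIs these were Cxcl12 (-1.15), Fabp4 (-0.32) and Ly6c1 (-0.057) for alopecia against no alopecia. With cells of 2 marker UMIs they were Ier3 (-0.61), Iigp1 (-0.81) and Irgm1 (-0.25) for no alopecia against WT, and Epas1 (-0.28), Fabp4 (-0.25) and Ly6c1 (-1.27) for alopecia against WT. The median of the VEGF-C list changed sign at 100 summed UMIs (0.16 and -0.32), as did that of MHC class II by the mean over cells (-0.11). The cause of these changes was not tested. Depth limits what can be seen: WT has 65 lymphatic cells, and a gene under 10.0 CPM there may have no UMI.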

Other observations

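A few lymphatic cells carried inflammatory chemokines. Without alopecia Ccl2, which draws monocytes, stood at 55.4 CPM in 11 cells and Ccl7 at 52.7 CPM in 16 cells, against 3.34 and 0 CPM in WT and 3.31 and 6.62 CPM with alopecia. Colec12, a scavenger receptor gene, was higher in lymphatic than in blood endothelial cells by 4.39 on the log2 scale (edgeR adjusted p = 6.5e-05). It stood at 90.3, 162 and 199 CPM in lymphatic cells of WT, UP_Del without alopecia and UP_Del with alopecia, where 18, 103 and 56 cells carried it, and at 15.5, 4.11 and 5.90 CPM in blood endothelial cells.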
